A study of Mus musculus with 22 samples.

Results

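Spermatocytes, the germ cells in meiosis, and round spermatids, their haploid products, carry open chromatin at places that are closed in the spermatogonia they descend from. The sites described here are the peaks of such open chromatin that were near background in control spermatogonia and well above it in later germ cells. A peak on chromosomes 1 to 19 was a member if its mean over the 5 libraries of later germ cells was at least 10 CPM (counts scaled to a common total of counts in peaks) and its mean over the 8 control spermatogonial libraries was below 1 CPM. By that rule 3055 of 93867 autosomal peaks were members (3.25%), of 96049 peaks in all. They made up 12.3% of the 24933 autosomal peaks that reached 10 CPM in the later libraries. The sites were thus chosen by their levels in the later and control libraries. They are called late-only sites below. The name refers to the cells of this study alone.

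The study deleted TERT, the catalytic subunit of telomerase, acutely in spermatogonia and measured open chromatin by ATAC-seq, in which Tn5 transposase cuts accessible DNA and inserts sequencing adapters. All mice were C57BL/6 and 8 to 12 weeks old. Spermatogonia were sorted on day 7 after tamoxifen, which switches on a Cre recombinase fused to the oestrogen receptor, from mice whose genotype entry is TertCreER/+:Rosalsl-Tdtomato/+. That entry is the same for controls and deleted mice, so the titles (TERT-hetero or TERT-deleted) set the 2 genotypes apart. By the allele's name the Cre is carried at Tert itself, and the controls are heterozygous. In each genotype 2 undifferentiated populations lacked KIT and differed in the surface molecule MCAM (high or medium), and a differentiating population had KIT with medium MCAM. Control libraries numbered 3, 2 and 3 in these populations and deleted libraries 3 in each. The 5 later libraries came from TertTdtomato/+ mice of the same strain and age and carry no time point. All 5 have "Het1" in their name, and the labels do not say that they, or any replicates, came from separate mice.

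The later libraries need a caution before any result. The library name, which is also the column name, calls 3 of them round spermatid (A, B and C) and 2 spermatocyte (A and B), whereas the title gives the other cell type for 4 of the 5. By title, round spermatid A and B are spermatocytes, and spermatocyte A and B are round spermatids. Round spermatid C is the same by both and came from 150k cells by its name, against 75k for each of the others. The 5 were therefore described as 1 group of later germ cells, by column name, and compared with each other under both labels. In bulk libraries, fewer cells of a type and less open chromatin per cell cannot be told apart.

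In the testis, many genes are used only after meiosis, when the spermatid builds its acrosome, a vesicle of enzymes for passing the egg coat, and its flagellum, and replaces histones with transition proteins and protamines. Regulators of this program include A-MYB (Mybl1) in meiotic cells, RFX2, which acts on genes of the axoneme, CREM and SOX30. Testis chromatin also opens at many long non-coding RNA genes. As background, promoters fall broadly into CpG islands, rich in CG dinucleotides and usually open in most cell types, and CpG-poor promoters that are more often tissue-restricted.

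The promoters of 6 late-only sites are printed first as examples of CpG-poor DNA at a start site, with few of the GC-rich motifs of broadly used promoters. Sequences are from RefSeq promoter records of GRCm38.p6, 250 bases before to 50 after the start, 5′ to 3′ on the gene's strand. Capitals mark matches to the RFX motif GTTGCCA, the MYB motif GGCAGTT and the CCAAT box CCAAT on either strand. The 6 are not typical of the set in these motifs. RFX and CCAAT matches are more frequent among them than in the 409 late-only promoters, of which 15.6% and 45.0% held one. Of these genes, 4933402J10Rik and 4930525C09Rik are lncRNAs and Gm17019 is a predicted protein-coding gene, and all 3 are among the strongest gene-end sites. Catsperb encodes an auxiliary subunit of the sperm calcium channel CatSper, Hils1 a spermatid linker histone, and Izumo3 a protein of the acrosome membrane. Their positions are chr5:59985953-59986252 on the minus strand for 4933402J10Rik, chr10:97714522-97714821 on the plus strand for 4930525C09Rik, chr5:15032958-15033257 on the minus strand for Gm17019, chr12:101404423-101404722 on the plus strand for Catsperb, chr11:94967343-94967642 on the plus strand for Hils1 and chr4:92147172-92147471 on the minus strand for Izumo3.
4933402J10Rik: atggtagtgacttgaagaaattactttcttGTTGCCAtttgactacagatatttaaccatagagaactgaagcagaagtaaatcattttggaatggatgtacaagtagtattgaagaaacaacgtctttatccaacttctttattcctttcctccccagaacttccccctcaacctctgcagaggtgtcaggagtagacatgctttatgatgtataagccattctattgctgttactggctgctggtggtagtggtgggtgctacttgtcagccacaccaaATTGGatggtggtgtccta
4930525C09Rik: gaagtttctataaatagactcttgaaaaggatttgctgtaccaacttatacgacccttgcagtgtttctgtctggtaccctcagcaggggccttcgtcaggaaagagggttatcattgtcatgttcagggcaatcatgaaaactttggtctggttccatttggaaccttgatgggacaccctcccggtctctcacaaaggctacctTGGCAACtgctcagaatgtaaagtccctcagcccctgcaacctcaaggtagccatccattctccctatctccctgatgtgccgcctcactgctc
Gm17019: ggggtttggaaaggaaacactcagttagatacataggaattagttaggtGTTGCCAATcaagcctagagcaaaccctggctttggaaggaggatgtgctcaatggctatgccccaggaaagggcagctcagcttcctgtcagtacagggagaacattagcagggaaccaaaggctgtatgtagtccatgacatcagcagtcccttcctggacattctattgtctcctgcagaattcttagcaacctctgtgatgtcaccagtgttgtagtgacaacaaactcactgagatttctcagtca
Catsperb: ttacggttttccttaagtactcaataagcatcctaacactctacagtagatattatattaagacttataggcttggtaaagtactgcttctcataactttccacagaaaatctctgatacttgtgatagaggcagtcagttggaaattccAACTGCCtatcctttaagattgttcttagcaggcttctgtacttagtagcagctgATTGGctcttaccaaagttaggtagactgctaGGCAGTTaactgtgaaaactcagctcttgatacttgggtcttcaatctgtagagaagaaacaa
Hils1: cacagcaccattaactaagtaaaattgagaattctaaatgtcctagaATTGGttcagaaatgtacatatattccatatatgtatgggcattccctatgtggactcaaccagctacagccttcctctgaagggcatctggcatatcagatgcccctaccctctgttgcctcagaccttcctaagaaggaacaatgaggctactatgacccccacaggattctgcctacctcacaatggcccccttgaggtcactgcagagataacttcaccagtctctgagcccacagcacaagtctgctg
Izumo3: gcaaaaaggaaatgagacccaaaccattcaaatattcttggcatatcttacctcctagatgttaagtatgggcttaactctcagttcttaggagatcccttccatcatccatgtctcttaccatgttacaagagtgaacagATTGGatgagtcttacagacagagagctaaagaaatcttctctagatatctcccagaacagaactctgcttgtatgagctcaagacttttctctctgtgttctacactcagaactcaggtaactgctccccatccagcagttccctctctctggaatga

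In these 6, the RFX match of 4930525C09Rik began 44 bases before the start site and lay on the opposite strand. Those of Gm17019 and 4933402J10Rik began 201 and 220 bases before it, on the gene's strand. In Gm17019 the RFX and CCAAT matches overlapped. Catsperb held 2 MYB matches, 100 and 13 bases before the start, with a CCAAT match between them. Hils1 and Izumo3 held a CCAAT match each, 203 and 109 bases before the start, and no RFX or MYB match.

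Levels in the later and control libraries chose the members and are given as a description. Over the 3055 sites the later libraries averaged 16.7 ± 0.831 CPM per site (SD, n = 5), from 15.6 in round spermatid A to 17.6 in round spermatid C. The median site was at 14.6 CPM, the highest at 63.0. The sites took 5.11% ± 0.254 of all counts in the later libraries (n = 5) and 0.177% ± 0.0839 in the controls (n = 8), where the mean was 0.581 ± 0.275 CPM. Of the members, 78 had no count at all in the 8 controls. At the depth of single control libraries, 3 counts, the limit that a count of 0 allows, come to between 1.13 and 3.25 CPM, so a site at this level in 1 library cannot be told from a closed one. Of the members, 2999 (98.2%) were at 5 CPM or more in all 5 later libraries and 1670 at 10 CPM or more in all 5, counts that the rule largely sets. Late-only sites were mostly of modest height. They were 20.5% of the autosomal peaks with later means of 10 to 15 CPM, 17.5% of those from 15 to 20, 11.2% from 20 to 30, 4.73% from 30 to 40, and 0.737% at 40 CPM or more.

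The rule did not use the 9 TERT-deleted libraries, and the sites stayed near background there too. Their mean was 1.31 ± 0.330 CPM (SD, n = 9), 12.8 times lower than in the later libraries. No site reached a mean of 10 CPM in the deleted libraries, 2 reached 5 CPM, 59 reached 3 CPM, and 1116 (36.5%) stayed below 1 CPM. In single deleted libraries, 15 sites were at 10 CPM or more in MCAM-high replicate 1, the shallowest of the 9, and between 0 and 2 in each of the others. The lowest later library lay above the highest deleted library at 2994 sites (98.0%), against 16.7% of all autosomal peaks, a share that the later levels in the rule largely set. Deleted libraries lay above controls at these sites, as they did at the 9289 autosomal peaks below both thresholds. There the mean was 1.15 ± 0.334 CPM in deleted (n = 9) against 0.532 ± 0.228 in control libraries (n = 8). Those peaks averaged 5.30 ± 0.272 CPM in the later libraries (n = 5), so they include weaker sites that were also higher in later cells. The ratio of late-only sites to those peaks was 1.06 to 1.24 in the deleted libraries, 0.913 to 1.15 in controls and 3.01 to 3.42 in later libraries. Deleted minus control was not tested, because low control values chose the members. They also chose the peaks below both thresholds, so these cannot show whether deleted libraries are higher in general.

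**Figure D1:**
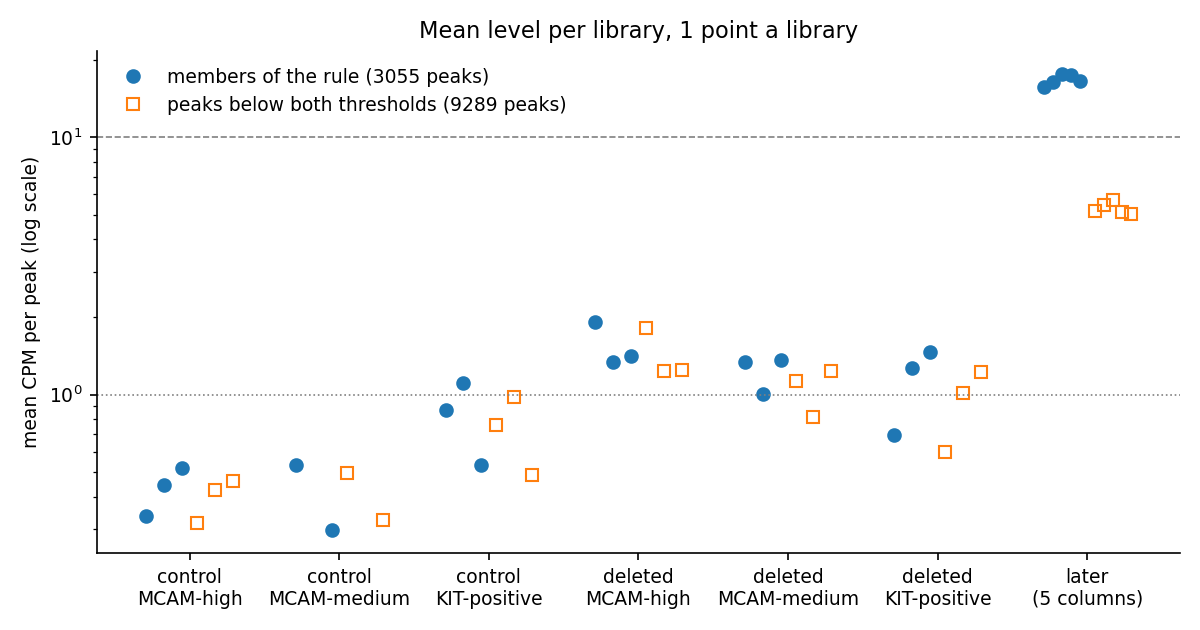
Mean CPM per peak (log axis) in each of the 22 libraries, 1 point a library, for the 3055 late-only sites (filled circles) and the 9289 autosomal peaks below both thresholds (open squares); the lines are at 10 and 1 CPM. Late-only sites sit between 15.6 and 17.6 CPM in the 5 later libraries and between 0.297 and 1.91 CPM in the 17 spermatogonial ones, where they run close to the other peaks.

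The 3 populations of deleted spermatogonia overlapped in their level at these sites. Summed over the sites, MCAM-high cells held 4743 ± 952 CPM (SD, n = 3), MCAM-medium cells 3765 ± 608 and KIT-positive cells 3484 ± 1216. The KIT-positive libraries, nearest to meiosis, were not the highest. The order of the last 2 was not stable: with TMM scaling the sums were 4378, 3530 and 3772, and without KIT-positive replicate 1 the KIT-positive mean was 4165. The peaks below both thresholds were at 1.43 ± 0.327, 1.06 ± 0.214 and 0.947 ± 0.320 CPM per peak in the 3 populations.

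Few single sites had enough counts in spermatogonia for a test. When the 9 deleted libraries were fitted with edgeR's quasi-likelihood test (p-values adjusted after Benjamini and Hochberg over the 41499 peaks tested), 2 of the 3055 late-only sites passed the filter on low counts, and they did so through the libraries where they were high. In KIT-positive minus MCAM-high cells, 21.2% of all peaks were called (13.5% higher and 7.77% lower), and 1 of the 2 sites was lower. That call was lost with the replicate number as a block and in 8 of the 9 fits that left out a library. In this contrast 5586 peaks were higher and 3225 lower with TMM scaling, and 3930 higher and 5085 lower when scaled by total counts, which moved the median log2 fold change of all peaks from -0.07 to -0.27.

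The other tested site, at chr19:4208980-4209501 in the lncRNA gene LOC102631992, held 13.1, 4.09 and 1.67 CPM in the MCAM-high, 9.66, 0 and 11.5 in the MCAM-medium, and 2.60, 2.77 and 2.18 in the KIT-positive replicates. These values overlap between populations, and the site passed in none of the 3 contrasts (lowest edgeR adjusted p = 0.339). In KIT-positive minus MCAM-medium cells (12.5% of peaks called, 8.06% higher and 4.41% lower) and MCAM-medium minus MCAM-high cells (1.2% called, 1.12% higher and 0.0892% lower), 0 of the 2 sites were called, by edgeR or DESeq2, and 0 had an unadjusted p under 0.05 in edgeR. The other 3053 late-only sites were left out by the filter on low counts.

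With no filter other than 1 count, 3049 late-only sites were tested, and calls rested on few counts. In KIT-positive minus MCAM-high cells 12 were then called, 3 higher and 9 lower, where 9.61% of all peaks were called (6.77% higher and 2.84% lower). In KIT-positive minus MCAM-medium cells 3 were called, all lower, beside 5.67% of all peaks (3.91% higher and 1.76% lower). The smallest p was at a site between genes near Gm6657 on chromosome 12, with 9.33, 6.82 and 5.00 CPM in MCAM-high and 0 in all 3 KIT-positive replicates. A site at the end of Ipo5 was also lower, with 7.47, 4.77 and 5.00 against 0, 1.11 and 0 CPM (edgeR adjusted p = 0.0496). In the opposite direction, a site at the end of Gm46332 had 0 in all 3 MCAM-high and 3.46, 2.77 and 4.37 CPM in the KIT-positive replicates.

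The share of late-only sites at the end of a gene lay between that of the autosomal peaks at or above both thresholds and that of the peaks below both. The first of these sets also holds peaks barely above 1 CPM in controls. The second, with a mean of 5.30 CPM in the later libraries, also holds peaks just under the later threshold. Here a peak counts as at a gene end if it comes within 1 kb of the first or last annotated base of a RefSeq gene, since the gene table gives no strand, exon or UTR. Of the late-only sites 647 (21.2%, 95% Wilson interval 19.8 to 22.7) were at a gene end, 1274 (41.7%) inside a gene and 1134 (37.1%) intergenic. By contrast, 56.2% of the 21878 autosomal peaks at or above both thresholds were at a gene end, as were 24.5% of all autosomal peaks and 8.14% of those below both thresholds. The gene at the end was a lncRNA for 389 of the 647 sites (60.1%), against 19.7% for peaks at or above both thresholds, 63.9% below both and 28.8% over all. Genes with RIKEN clone names, many of them first cloned from testis, made up 26.4%, against 7.88%, 16.8% and 8.09%. Their median width was 428 bp, against 794 bp for peaks at or above both thresholds, 235 bp below both and 416 bp over all. All these shares describe sets cut by level, and none was tested.

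Late-only sites near a start site lay on either side of it. Among the 2917 on chromosomes with RefSeq start sites in the promoter table, 401 (13.7%) had their centre within 500 bp of one, against 43.6% of peaks at or above both thresholds and 3.28% below both. Of these 401, 258 (64.3%) were centred upstream, against 36.9% of such peaks at or above both thresholds and 53.4% of those below both. The median centre was 29 bp upstream of the start, against 50 bp downstream at or above both thresholds and 14 bp upstream below both. More than 10 kb from any start site were 1924 late-only sites (66.0%), close to the 63.3% of all autosomal peaks and between the 38.0% at or above both thresholds and the 79.8% below both.

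**Figure D2:**
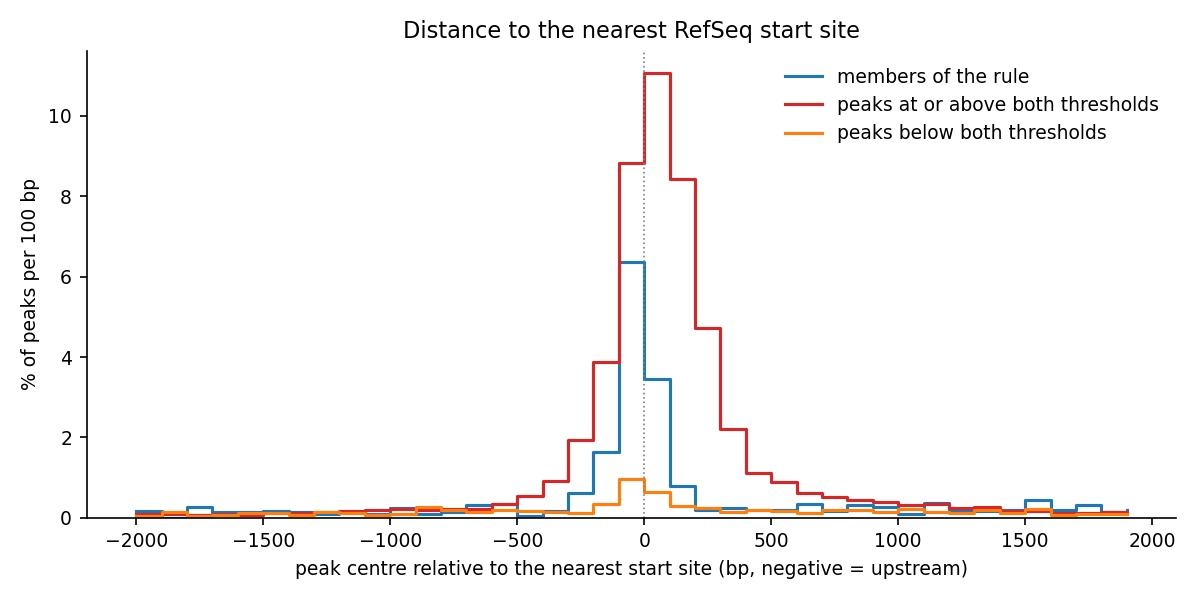
Share of peaks per 100 bp (vertical axis, percent) by distance of the peak centre from the nearest RefSeq start site (horizontal axis, bp, negative upstream), for late-only sites, peaks at or above both thresholds and peaks below both. The late-only sites peak in the 100 bp before the start (6.38%) rather than after it (3.46%).

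The promoters under late-only sites were of the CpG-poor kind. The start site lay inside the peak for 409 RefSeq promoters of 386 genes, in 368 sites. Their median GC content was 46.3% and their median ratio of observed to chance CpG was 0.143. In 11841 promoters inside peaks at or above both thresholds (called doubly open promoters below) these were 62.0% and 0.786, and in 179 promoters inside peaks below both thresholds 46.0% and 0.140. A CpG ratio of 0.6 or more was found in 1 late-only promoter (0.244%), against 75.9% of doubly open promoters. In base composition the late-only promoters were close to those below both thresholds.

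Motif matches were counted on both strands of these 300-base promoters for 13 motifs. RFX matches (GTTGCCA) were in 64 of 409 late-only promoters (15.6%, Wilson interval 12.4 to 19.5). They were in 5.13% of doubly open promoters, 7.82% (4.72 to 12.7) of those below both thresholds, 5.04% in any autosomal peak and 4.38% of all 32817 promoters of the table. Of the 73 matches, 40 (54.8%) began in the last 100 bases before the start. Sites with and without an RFX match had the same median later level, 17.2 CPM. MYB matches (GGCAGTT) were in 35 promoters (8.56%), against 3.78% of doubly open promoters, 7.82% below both and 4.12% in the table, and the late-only interval of 6.22 to 11.7 held the share below both thresholds. Likewise close to the promoters below both were the TATA box TATAAA (13.7%, against 13.4% below both and 5.52% of doubly open promoters), the GATA motif AGATAA (15.2%, 16.2% and 4.93%) and the SOX motif CCATTGTT (3.91%, 5.03% and 0.515%). The CCAAT box was in 45.0%, against 35.2% below both and 38.8% of doubly open promoters.

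GC-rich motifs were rare, as they were in promoters below both thresholds. The GC box GGGCGG was in 4.16% of late-only promoters, 6.15% of those below both thresholds and 66.0% of doubly open promoters. The NRF1 core GCGCATGC and the ETS motif CCGGAAGT were in 1 late-only promoter each (0.244%), against 6.11% and 9.22% of doubly open promoters and 0 of 179 below both. The CTCF core AGGGGGCGC was in 0 of 409, against 2.47% of doubly open promoters and 0 of 179 below both. The full cAMP response element TGACGTCA, which CREM binds, was in 1.96%, against 3.84% of doubly open promoters and 0.559% below both. The E box CACGTG was in 2.44%, against 10.9% and 5.03%. A match is a string of letters and not a bound site. Some promoters share sequence: counting those with a common stretch of 30 bases once left 335 groups, of which 48 (14.3%) had an RFX match.

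**Figure D3:**
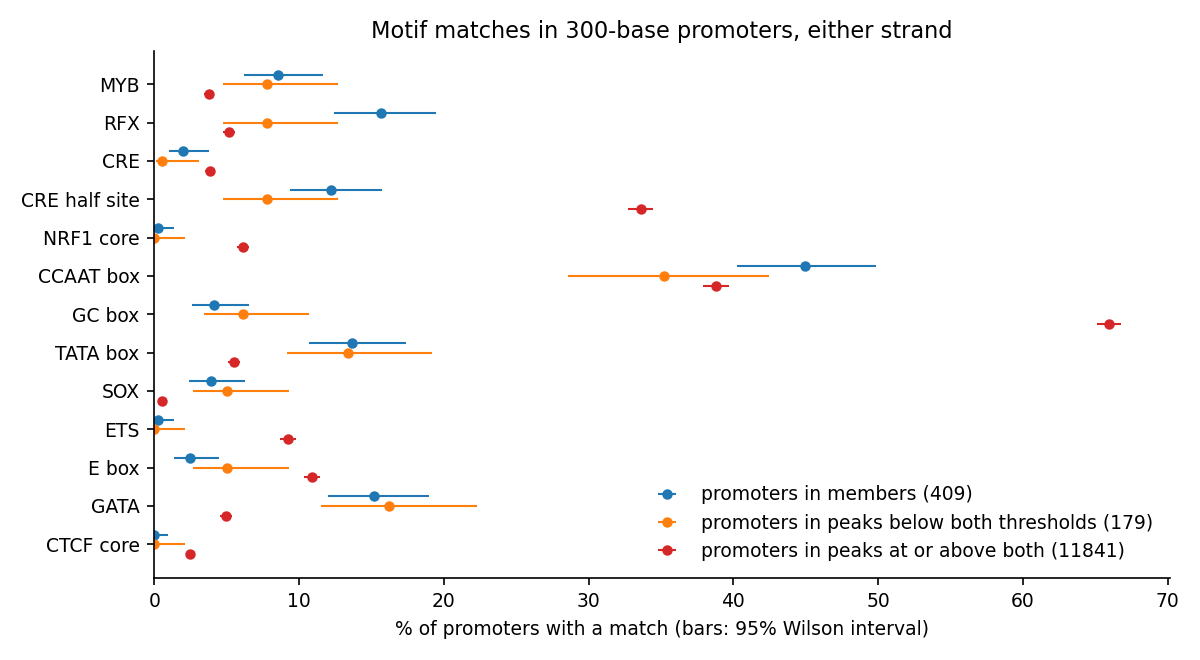
Share of 300-base promoters (horizontal axis, percent, bars are 95% Wilson intervals) with a match to each of 13 motifs on either strand, for 409 promoters in late-only sites, 179 in peaks below both thresholds and 11841 in peaks at or above both thresholds. RFX is at 15.6% in late-only promoters against 7.82% and 5.13%, and the GC box at 4.16% against 6.15% and 66.0%.

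Late-only sites at gene ends included genes of the acrosome, the flagellum and spermatid chromatin, and 1 regulator. Of 21005 genes with an autosomal peak at an end, 673 (3.20%) had a late-only site there. In the acrosome list these were 9 of 31 genes (29.03%), in the list of protamines, transition proteins and spermatid nuclear proteins 2 of 10 (20%), in the flagellum and motility list 7 of 50 (14.0%), and in the list of regulators of spermatocytes and spermatids 1 of 22 (4.55%). In the meiosis list it was 0 of 47. The shares are a description, and the lists were not tested against each other. A site at a gene end need not hold a start site. No RefSeq start site lay inside the late-only peak at Adam2, Actl9, Hyal5, Catsper1, Dnah3, Odf3 and Kcnu1, while the other list sites held one.

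Of the late-only sites at the 9 acrosome genes, that at Fam170b, which encodes an acrosomal protein, had the highest later mean. It held 34.5, 24.1 and 39.8 CPM in round spermatid A, B and C and 36.8 and 36.5 in spermatocyte A and B. Its 8 control libraries ran from 0 over a median of 0.254 to 2.17 CPM, and its 9 deleted libraries from 0 over 1.36 to 5.601 CPM. Every later library lay above every spermatogonial one, an order that the rule largely sets for the later and control libraries. Izumo3 followed with 20.5, 22.9 and 27.9 in the round spermatid and 18.7 and 27.7 in the spermatocyte columns, and at most 1.36 CPM in a deleted library. Acrv1, which encodes the acrosomal protein SP-10, was the steadiest of the acrosome sites over 20 CPM, with 24.4, 22.9, 23.7, 20.5 and 24.2 in the same order. The remaining 6 were Spaca3 (18.5 ± 2.80, SD, n = 5), a lysozyme-like protein, Tmem190 (18.8 ± 5.76), Adam2 (15.8 ± 4.69), a subunit of fertilin, the sperm hyaluronidases Spam1 (14.98 ± 1.06) and Hyal5 (12.8 ± 2.46), and the actin-like Actl9 (13.9 ± 3.60). At 3 of the 9 genes another peak at a gene end was higher in the later libraries and above 1 CPM in controls: Fam170b with 42.7 in later, 10.9 in control and 13.5 in deleted libraries, Actl9 with 22.8, 3.31 and 2.68, and Adam2 with 18.8, 7.40 and 6.88. Spam1 and Hyal5 are neighbours, with sites at chr6:24791024-24791385 and chr6:24856808-24857203.

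In the flagellum and motility list, 4 of the 7 genes encode parts of sperm ion channels. Catsper1 and Catsper3 encode pore subunits of CatSper and Catsperb an auxiliary one, and Kcnu1 encodes the sperm potassium channel SLO3. Catsper3 held 20.5, 20.6 and 16.0 CPM in the round spermatid and 25.9 and 30.3 in the spermatocyte columns, with 2 counts in all over the 8 controls and at most 4.67 CPM in a deleted library. Later means were 31.9 ± 5.91 CPM at Kcnu1, 20.5 ± 6.96 at Catsper1 and 14.7 ± 4.21 at Catsperb (SD, n = 5). The structural genes were Dnah3, an axonemal dynein heavy chain, at 41.9 ± 5.95, Odf3 of the outer dense fibres at 20.1 ± 4.06 and Akap3 of the fibrous sheath at 17.4 ± 4.06.

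Of the spermatid chromatin genes, Hils1 was the strongest of all 19 list sites. Its later libraries held 32.2, 41.2 and 53.7 CPM (round spermatid A, B and C) and 44.0 and 43.7 (spermatocyte A and B), against at most 2.17 in a control and 4.51 in a deleted library. Prm1, a protamine, held 14.0, 12.6, 25.1, 22.9 and 21.6 in that order. Round spermatid A and B were the lowest of the 5 at Prm1, and these are the 2 libraries whose titles say spermatocyte. Other list sites divided by column name instead. At Spaca3 the spermatocyte columns were lowest, with 15.7 and 15.4 CPM against 19.4, 21.2 and 20.9. At Tmem190 they held 13.9 and 13.4 against 20.5, 27.5 and 18.8. Which label is right was not tested. The single regulator was Hmgb4, an HMG box protein of the testis, at 12.0 ± 2.25 CPM with no count in any control.

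**Figure D4:**
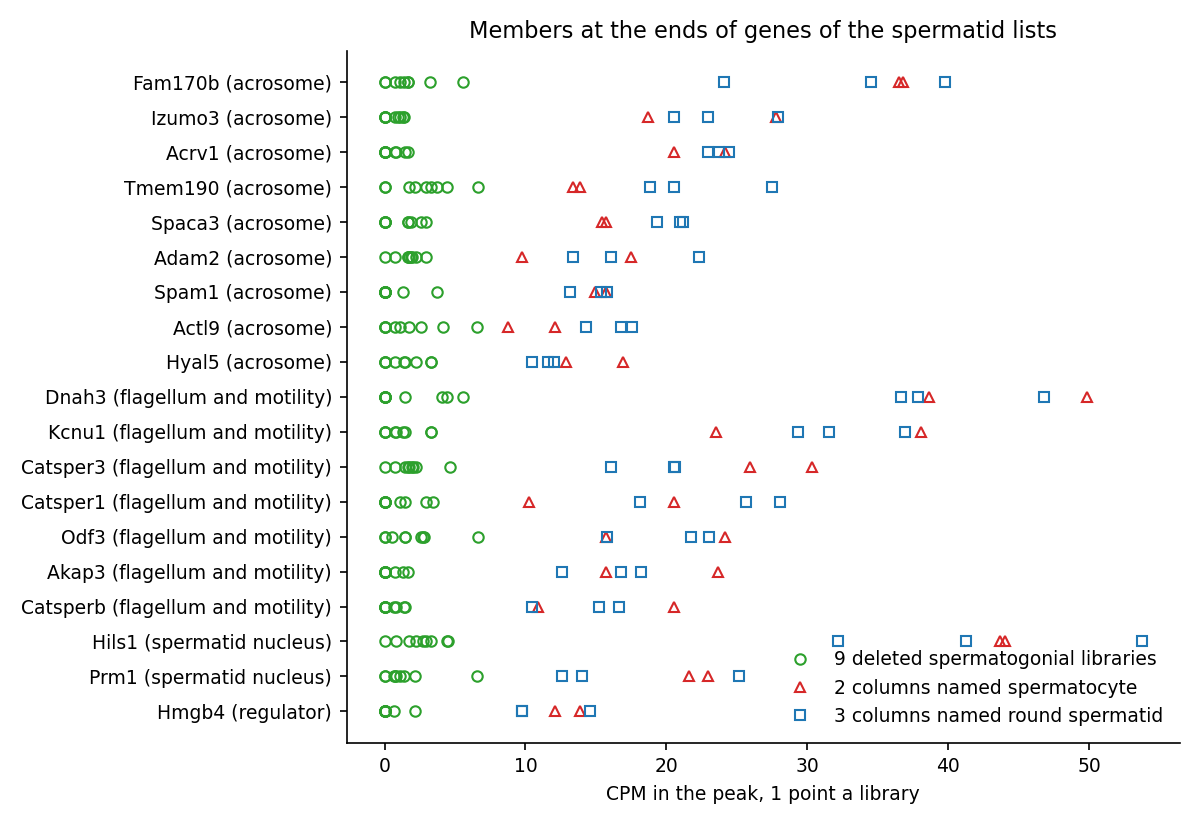
CPM in the late-only peak at the 19 list genes (horizontal axis), 1 point a library: 9 deleted spermatogonial libraries (circles), 2 columns named spermatocyte (triangles) and 3 named round spermatid (squares). At each of the 19 genes all 5 later libraries lie above all 9 deleted ones. The same holds at 98.0% of all late-only sites, a share that the later levels in the rule largely set.

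Some well-known partners of these genes missed the set on the control threshold, and others were already open. Tnp1, transition protein 1, had 34.0 CPM in later and 1.05 in control libraries, the acrosin gene Acr 45.6 and 1.46, Odf1 51.3 and 1.23, the testis histone gene H2bl1 23.5 and 1.12, and the sperm glycolytic enzyme gene Gapdhs 51.4 and 1.82. All 5 were kept out by the control threshold of 1 CPM alone. Prm2 and Prm3, which share their best gene-end peak, lay further above that threshold, with 52.9 in later and 3.07 in control libraries. Most regulator genes were instead open before meiosis. Crem had 66.7 CPM in later and 81.9 in control libraries at its best gene-end peak, and Rfx2 100.9 and 72.4. Mybl1 had 61.9 and 59.2, and Sox30 98.3 and 37.3. Among the exceptions, Spz1 had 69.3 in later and 2.42 in control libraries. Fhl5 had 9.89 and 0.333, just under the later threshold of 10 CPM. Of the 47 meiosis genes with a peak, 43 were at or above both thresholds there. At 10 CPM or more in controls at that peak were 43 of the 47 meiosis genes, 16 of the 22 regulators, 14 of the 31 acrosome and 30 of the 50 flagellum genes.

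Marker lists of other cells held no late-only site: 0 of 22 genes of undifferentiated spermatogonia, 0 of 12 of Sertoli, 0 of 2 of Leydig, 0 of 10 of peritubular and endothelial, and 0 of 4 of immune cells. The share over all genes with a peak at an end was 3.20%, so 0 in lists this short is near it. At the best gene-end peak, 16, 11, 2, 5 and 1 genes of these lists had control means of 10 CPM or more, which the rule excludes. Summed over their best gene-end peaks, Sertoli markers held 98.6 to 128 CPM in the later libraries against 212 to 267 in the controls, with 12 of 12 genes lower, and markers of undifferentiated spermatogonia 283 to 337 against 462 to 675, with 19 of 22 lower. Leydig markers held 12.0 to 16.97 against 32.5 to 73.1 (2 of 2 lower), peritubular and endothelial markers 84.0 to 99.7 against 109 to 168 (7 of 10 lower) and immune markers 7.84 to 15.5 against 12.2 to 34.1 (4 of 4 lower). The exceptions in the peritubular list were Des (29.96 in later and 6.10 in control libraries), Tagln (9.60 and 5.61) and Myh11 (9.32 and 8.15). At the best gene-end peak the median later mean was 2.63 CPM in the immune list and 6.59 to 8.75 CPM in the others. The part of these cells in the late-only sites was not tested. The lists for immune and Leydig cells rest on few genes.

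The strongest gene-end sites were mostly at non-coding genes. The first 10 were, in order, Gm38405, 4930434J06Rik, 4933402J10Rik, 4930525C09Rik, Gm17019, Gm6117, Hils1, 1700010J16Rik, Dnah3 and Ipo5, the last an importin gene. Of these, 6 are lncRNAs, and their later means ran from 48.6 ± 15.1 CPM at Gm38405 to 40.5 ± 6.58 at Ipo5 (SD, n = 5). At 4933402J10Rik the later libraries held 48.5, 41.2 and 38.4 CPM (round spermatid A, B and C) and 48.8 and 43.2 (spermatocyte A and B), its 8 controls 4 counts in all, and its highest deleted library 3.33 CPM. Gm17019 had the closest later values, 40.5, 45.3, 42.6, 44.6 and 42.1 in that order. At 4930525C09Rik they spread more, with 39.9, 28.6, 54.4, 53.7 and 43.2.

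Away from gene ends, the strongest site was inside Arsb, a lysosomal sulfatase gene, at chr13:93841154-93841878. It held 56.0, 47.6 and 73.3 CPM in round spermatid A, B and C and 82.0 and 56.0 in spermatocyte A and B, with 6 counts in all over the 8 controls and at most 2.22 CPM in a deleted library. No gene end lies within 1 kb of this site, which had the highest later mean of all 3055. The next 4 were chr10:14226016-14226740 (56.7 ± 14.6 CPM), whose nearest gene, Hivep2, ends 74638 bp away, chr16:92010823-92011795 (55.7 ± 7.49) near Gm36905, chr5:17507798-17508815 (55.3 ± 9.77) near Speer4f1, and chr15:70098558-70099768 (55.0 ± 15.4) near Gm19782. The last was also one of the 2 sites at 5 CPM or more in the deleted libraries, where it ran from 1.36 over a median of 5.15 to 11.1 CPM. The other of the 2 was the site in LOC102631992.

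Some sites lay near another of their kind. With gaps under 50 kb between them, 793 of the late-only sites (26.0%) lay in 346 runs of 2 or more. The same share was not computed for other peaks, so it does not show whether late-only sites cluster more than those. The longest run had 7 sites in 56519 bp at chr17:53716290-53772809, of which 4 lie in the lncRNA gene 4932415M13Rik and 3 nearest to LOC115486426. Its later means ran from 13.2 to 21.9 CPM and its deleted means from 0.0926 to 1.002 CPM. On chromosome 5, 2 runs of 6 sites covered Speer3 and Speer4e with Gm17019, genes of the testis family of glutamate-rich Speer proteins. Of 9 Speer genes with a peak at an end, 5 had a late-only site, at 21.0 to 32.3 CPM. These genes are near-identical copies, so reads may have been assigned between them and each value is uncertain. Long genes with many peaks held the most sites. Late-only were 6 of 45 peaks in Cdh13 (T-cadherin), 6 of 21 in Dpp10, 5 of 53 in Ctnna3 and 5 of 42 in Magi2. Of the genes with 5 or 6 sites, Gm34905 alone is short, at 52783 bp with 5 of its 6 peaks late-only. By chromosome, the share of peaks past the rule ran from 2.25% on chromosome 17 to 4.35% on chromosome 14.

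The difference between the 2 later cell types was not used by the rule and was tested over the whole table. By column name, 3 round spermatid against 2 spermatocyte libraries, edgeR's quasi-likelihood test called 0 of 47877 peaks (0%) and 0 of the 3055 late-only sites, all of which were tested. At an unadjusted p under 0.05 there were 3522 peaks (7.36%) and 167 late-only sites (5.47%). DESeq2 also called 0, with 1381 peaks and 39 late-only sites at an unadjusted p under 0.05. The median log2 fold change was -0.04 over late-only sites, 45.5% of them above 0, and 0.00295 over all peaks. The smallest p belonged to a site inside Gm13481 at chr2:48339023-48339629, with 7.15, 8.59 and 10.5 CPM in the round spermatid and 16.3 and 24.7 in the spermatocyte columns, a log2 fold change of -1.29 (SE 0.36, adjusted p = 0.315). The columns do not overlap at this site, yet it did not pass over all peaks tested.

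Split by title, more peaks were called. Then 160 of 47877 peaks were called (0.334%), 106 higher (0.221%) and 54 lower (0.113%) in libraries titled round spermatid, and 5 of the late-only sites: 4 higher and 1 lower. The site inside Ttc7b at chr12:100465262-100465648 held 8.04 and 5.73 CPM in the 2 libraries titled spermatocyte (round spermatid A and B by column) and 21.6, 18.7 and 23.1 in those titled round spermatid (round spermatid C, spermatocyte A and B), a log2 fold change of 1.59 (SE 0.35, adjusted p = 0.0133). The others higher were at Gm33199 on chromosome 8 (1.43, SE 0.32), in Gm31456 on chromosome 14 (1.86, SE 0.43) and near Gm19782 on chromosome 15 (0.76, SE 0.19), and the site inside Arl14ep on chromosome 2 was lower (-1.18, SE 0.30). The median log2 fold change over late-only sites was then 0.12, with 63.7% above 0, and 0.01 over all peaks. Its sign over late-only sites was opposite to that by column name, which follows largely from the exchange of 4 of the 5 labels. At an unadjusted p under 0.05 were 307 late-only sites (10.05%), 243 higher and 64 lower, beside 12.7% of all peaks. The late-only share called, 0.164%, was below that of all peaks. None of the 5 stayed called when any 1 of the 5 libraries was left out, or with DESeq2.

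At the thresholds of the rule the set has no gap. Just inside the later threshold were sites at 10.0018, 10.0032 and 10.0085 CPM nearest to Igbp1b, Snapc3 and 4930548G05Rik, and just outside it peaks at 9.99892, 9.99836 and 9.99829 nearest to Nxt1, Mapk8ip2 and Csrnp3. Just inside the control threshold were sites at 0.999816, 0.999616 and 0.999457 CPM nearest to Napb, Sclt1 and Atp11a, and just outside it peaks at 1.00006, 1.00019 and 1.00065 nearest to Syt14, Gm28516 and Phactr1.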

How the data were processed

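The authors deposited raw read counts for 1 common set of peaks in all 22 libraries, per the file headers. The submitters' processing notes name Bowtie2, FastQC, Picard and SAMtools, and the builds GRCm38, mm10 and hg19 with no role for each. Peak caller, counter, Tn5 offset, read filters and the base (0 or 1) of peak starts are not given in the sources used here, and starts are as deposited. Of nonzero counts, 50.7 to 73.9% were even in control, 48.8 to 73.7% in deleted and 49.3 to 49.9% in later libraries; counting both ends of a fragment gives even counts, and intervals are then too narrow. Duplicate reads would widen the spread of low counts, and intervals and floors cover counting error only.

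Library totals in peaks ran from 922085 to 3358377. CPM is the usual scaling of a count by its column total, and group values are mean ± SD. Peaks were matched to 34627 RefSeq genes and 32817 promoters (GRCm38.p6). Tests used edgeR 4.0.16 in R 4.3.3 (TMM, filterByExpr, quasi-likelihood, Benjamini-Hochberg over all peaks tested, threshold 0.05) on the 5 later or the 9 deleted libraries. SE is the log2 fold change over the square root of F. DESeq2 1.42.0, other scalings, filters, thresholds, splits and left-out libraries were alternatives. The scripts were tested on simulated data. P-values reflect only how far these libraries spread, which may be technical.

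The members, the 10 gene lists, the motifs and the tests were chosen with earlier results of these data known. Named were the 10 gene-end and 5 other sites with the highest later means, sites at the thresholds, sites called in a contrast or at a list gene, the longest run and the genes with most sites. Chosen after their values were seen were the 2 sites highest in deleted libraries and the list genes named as outside the rule. So were the regulators named as already open or as exceptions, and the sites set beside Prm1. Not every called site is given with its values, and 1 is not reported here.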

Additional observations from a re-analysis of the deposited data

Results flagged for a closer look

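Among 42 quantities checked over the 5 later libraries (total counts, the mean over late-only sites and each named site), 1 had a library far from the others. Round spermatid A held 3358377 counts in peaks against 1433230 to 1946165 in the other 4 libraries, a gap of 0.734 of the whole range. Chance marks about 1 in 20 such groups. The count of late-only sites without that library was 3112.

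The rule left out the sex chromosomes. On X, 3 of 2034 peaks were past both thresholds, of 146 with a later mean of at least 10 CPM, and on Y 1 of 77, of 7. The X sites were 2 neighbours near Gm1141 (15.03 ± 3.43 and 10.6 ± 3.27 CPM, SD, n = 5, with 0 and 6 counts over the 8 controls) and 1 at Tcp11x2 (11.0 ± 2.61). That on Y lay in Gm20931 (12.6 ± 2.50), one of many near-identical copies there, so its value is uncertain.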

How the results depend on the processing

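The number of sites followed the thresholds. It was 8034 and 685 with later thresholds of 5 and 20 CPM, and 1135 and 5645 with control thresholds of 0.5 and 2 CPM. It was 3533 with TMM-scaled CPM (3046 shared) and 4102 with medians (2795 shared), and 2826 to 3872 when any 1 of the 13 libraries was left out. The share at a gene end was 15.6% with a window of 250 bp (48.0% for peaks at or above both thresholds) and 35.6% with 5 kb (68.9%). In round spermatid minus spermatocyte columns, 5 late-only sites were called by title and 0 with DESeq2, total counts, no filter or any library left out; over all peaks 0 to 12 were called with a library left out (12 without round spermatid C, 1 without spermatocyte B). Later libraries with the same letter had correlations of deviations of -0.065 and 0.045. The deviations of the 2 spermatocyte columns mirror each other, so these values cannot show whether letters pair the libraries. A replicate block called 118 peaks and 2 late-only sites, in Ttc7b and near Gm36251. In deleted KIT-positive minus MCAM-high cells, late-only calls were 12 with no filter, 0 with a replicate block and 0 to 1 with a library left out; the sites called were not the same ones in every fit: a site on chromosome 2 was the 1 called without MCAM-high replicate 3, and that near Gm6657 the 1 called with all 17 libraries. With no filter 3 late-only sites were called in KIT-positive minus MCAM-medium cells. Same-numbered deleted libraries correlated between -0.104 and 0.074, so the numbers were not taken as pairs; the block changed no other call of a late-only site. Over all peaks, KIT-positive minus MCAM-medium calls fell from 5175 to 3413 without MCAM-medium replicate 1, and MCAM-medium minus MCAM-high calls from 500 to 246 with DESeq2, 8 with all 17 libraries, and 166 to 628 with a library left out. Summed levels in the deleted populations moved by less than 1 SD under TMM and with any library left out. Depth limits single sites: 3 counts came to 1.66 to 2.80 CPM in a deleted library.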

Other observations

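Later libraries correlated with each other at r between 0.538 and 0.678 across the 3055 late-only sites (across sites, which are not independent replicates), the highest between round spermatid A and B and the lowest between round spermatid B and spermatocyte A. Over all autosomal peaks the same pairs were at r between 0.838 and 0.902.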
